A study of Rattus norvegicus with 6 samples.

Results

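The genes described here encode the proteasome and the enzymes that attach and remove ubiquitin. They were chosen by symbol: a probe set belonged to them if it carried exactly 1 gene symbol and that symbol began with Psma to Psmg and a digit, Ube2, Usp and a digit, Uba and a digit, or Uch. The rule gave 109 genes with 134 probe sets, of 10412 genes and 15866 probe sets on the array. Of the 109 genes, 103 were bright enough to be tested. The rule used no measured value. Psmc3ip and Psme3ip1 match it by name only and are not proteasome subunits.

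The data are 6 Affymetrix rat 230A expression arrays of liver endothelial cells, 3 from Wistar rats with induced cirrhosis and 3 from control Wistar rats, compared for differences in gene expression. The labels give the cirrhotic rats as adult males, and name no allele or further agent for either group. Cells were freed with collagenase, separated by density and captured on beads carrying antibodies. The sources used here do not give the antibody, the way cirrhosis was induced, the age of the controls or the number of rats behind an array. The p-values therefore reflect only how the 3 arrays of a group vary, part of which may be technical.

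The proteasome is the protease complex that degrades proteins marked with ubiquitin in cytosol and nucleus. Its 20S core is a stack of alpha and beta rings with the protease sites on beta subunits, and the 19S cap binds the ubiquitin chain, removes it and unfolds the protein with a ring of ATPases. Ubiquitin reaches its target through an activating enzyme (E1), a conjugating enzyme (E2) and a ligase (E3), and deubiquitinases take it off again. Interferon induces 3 replacement beta subunits, Psmb8, Psmb9 and Psmb10, which form the immunoproteasome, and the activator PA28, made of Psme1 and Psme2. Immunoproteasomes cut peptides for display on MHC class I, and liver sinusoidal endothelium is known for presenting antigen.

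The promoters of 5 members are shown: Psme2 and Psma4, called higher in cirrhotic cells, and the immunoproteasome genes Psmb8, Psmb9 and Psmb10, not called. The differences of these uncalled genes were positive too, from 0.06 to 0.28. Whether the 5 genes differ from each other in their response was not tested. Each line is the 250 bases upstream of the RefSeq gene start in build GRCr8, 5′ to 3′ on the gene's strand, and capitals mark a motif match. The positions are chr15:33052752-33053001 on the minus strand for Psme2, chr20:4657032-4657281 (minus) for Psmb8, chr20:4668750-4668999 (plus) for Psmb9, chr19:50743293-50743542 (minus) for Psmb10 and chr8:64236270-64236519 (plus) for Psma4.
Psme2: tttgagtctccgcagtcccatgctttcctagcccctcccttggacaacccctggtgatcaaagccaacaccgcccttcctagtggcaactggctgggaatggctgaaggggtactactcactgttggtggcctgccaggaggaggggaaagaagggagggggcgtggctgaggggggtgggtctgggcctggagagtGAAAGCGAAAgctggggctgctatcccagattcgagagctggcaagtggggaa
Psmb8: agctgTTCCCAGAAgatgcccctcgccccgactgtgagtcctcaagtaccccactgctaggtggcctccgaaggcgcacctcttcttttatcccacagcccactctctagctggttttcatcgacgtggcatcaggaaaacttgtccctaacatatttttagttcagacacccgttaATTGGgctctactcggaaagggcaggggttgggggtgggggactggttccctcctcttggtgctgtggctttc
Psmb9: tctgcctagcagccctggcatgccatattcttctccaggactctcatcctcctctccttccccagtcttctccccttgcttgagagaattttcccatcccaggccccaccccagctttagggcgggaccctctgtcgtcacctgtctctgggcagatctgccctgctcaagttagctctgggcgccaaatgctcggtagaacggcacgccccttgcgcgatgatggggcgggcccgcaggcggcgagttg
Psmb10: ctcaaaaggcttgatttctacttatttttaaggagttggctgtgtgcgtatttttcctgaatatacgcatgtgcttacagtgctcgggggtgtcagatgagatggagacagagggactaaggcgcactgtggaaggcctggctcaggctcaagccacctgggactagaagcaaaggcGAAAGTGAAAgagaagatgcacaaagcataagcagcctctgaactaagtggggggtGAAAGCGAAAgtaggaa
Psma4: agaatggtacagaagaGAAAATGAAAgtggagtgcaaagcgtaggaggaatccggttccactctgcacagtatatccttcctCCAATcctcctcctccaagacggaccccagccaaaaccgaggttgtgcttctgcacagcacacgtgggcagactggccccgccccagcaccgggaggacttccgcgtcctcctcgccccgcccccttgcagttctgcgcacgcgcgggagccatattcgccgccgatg
The capitals are matches on either strand to the interferon-stimulated response element, searched as GAAA, any 2 bases and GAAA (Psme2, Psma4 and, at 2 places, Psmb10), the gamma-activated site TTCNNNGAA (Psmb8) and the CCAAT box CCAAT (Psma4, and as its reverse complement in Psmb8). The match in Psme2 lies 53 to 44 bases upstream of the start, those in Psmb10 73 to 64 and 17 to 8 bases upstream, and that in Psma4 234 to 225 bases upstream. No printed stretch has overlapping matches, and in the printed stretch of Psmb9 these letters, and the antioxidant response element TGACNNNGC, were not found. A match describes the letters and is not a binding site.

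Searched over 300 bases, which add the 50 bases after the start, 97 of the 109 genes had a RefSeq promoter, and the same search ran over all 33469 promoters of that length. The interferon-stimulated element was found in 3.92% of all promoters and in 2 of the 3 immunoproteasome promoters, Psmb8 and Psmb10. The Psmb8 match does not lie wholly within the printed stretch. The element was also found in 3 of 28 constitutive core and cap promoters (Psma4, Psmb3 and Psmd7) and in 0 of 56 promoters of ubiquitin enzymes. The CCAAT box was in 57.1% of the constitutive promoters (16 of 28), in 26.8% of those of ubiquitin enzymes (15 of 56) and in 37.5% of all. It was also in 2 of the 3 immunoproteasome promoters, Psmb8 and Psmb9, and the Psmb9 match does not lie wholly within the printed stretch. TGACNNNGC was in 21.4% of the constitutive promoters (6 of 28), in 25.0% of those of ubiquitin enzymes (14 of 56) and in 12.1% of all. No test was made of these shares.

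The trimmed mean signal was 399.2 to 399.6 on the 6 arrays and the median signal 177.7 to 200.9. The 3′ to 5′ ratio of hexokinase was 2.47 to 2.91 on cirrhotic arrays and 1.81 to 7.42 on control arrays, with the highest value on control 1. That of beta-actin was 1.23 to 1.27 against 1.22 to 1.57, and that of GAPDH 1.13 to 1.15 against 1.08 to 1.37. For each transcript, control 1 and control 3 lay above every cirrhotic array and control 2 below. All 8 tested pan-endothelial markers were lower in cirrhotic cells, with a summed signal of 13611.9 to 15350.9 on cirrhotic arrays against 29455.5 to 30197.9 on control arrays. All 6 tested sinusoidal markers were lower too, and both sets were detected on every array. Of markers of other cells, those higher in cirrhotic cells were 7 of 8 tested cholangiocyte genes (summed signal 5217.2 to 13402.7 against 724 to 1483.1, Krt7 too dim to test), 6 of 8 stellate cell and myofibroblast genes (12904.3 to 22915 against 1667.9 to 3090.3, Acta2 and Des too dim), 5 of 9 hepatocyte genes (29978.4 to 53355.3 against 23892.7 to 32373.4) and 5 of 8 T and NK cell genes (3377.6 to 6556.5 against 2786.2 to 3926.2, Cd3d too dim). Of 7 macrophage genes 2 were higher and 1 lower, the Kupffer cell lectin Clec4f at -3.22 (summed signal 5889.6 to 12096.6 against 4151.7 to 7704.3), and of 4 mast cell genes 3 were higher and 1 lower (1133.6 to 4052.4 against 542.9 to 779.9). Of B and plasma cell, neutrophil and neuronal genes only 1 each could be tested. Cd37 was higher at 1.30, a call that held in 1 of 6 fits without an array. Lcn2 was higher at 3.41, and Syp was not called. The neutrophil gene S100a9, too dim to test, gave 1022.3, 639 and 45 on cirrhotic arrays against 49.5, 10.7 and 29 on control arrays. In RNA of a mixed preparation, fewer cells of a type and less RNA per cell cannot be told apart, and the part of these other cells in the differences below was not tested.

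Differences are cirrhotic minus control on log2(signal + 16), from a limma fit over 9519 probe sets with Benjamini-Hochberg adjusted p, called at 0.05, with each gene read from its brightest probe set. Of the 103 tested genes 14 were called higher and 4 lower, 17.5% in all, where 25.5% of all 7148 tested genes were called, 12.7% in each direction. With the signals centred on each array's median, 6 members were called higher and 7 lower. None of the 103 was called with a difference of 2-fold or more, against 5.43% of all genes at least 2-fold higher and 3.60% at least 2-fold lower. The groups did not overlap for 35 members that were higher and 12 that were lower, against 22.0% and 23.3% of all tested genes (45.2% in either direction). Counted by probe set, 14 of 118 tested were higher and 5 lower, against 12.3% and 13.2% of all tested probe sets (25.4% in all).

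The 41 tested genes named for the proteasome (Psma to Psmg) held 11 of the 14 genes called higher and 1 of the 4 called lower. Their differences were positive for 39 of 41, with a median of 0.28, while 49.7% of all tested genes were positive with a median of -0.00. In the core and cap, the 30 genes of constitutive 20S and 19S names had 8 genes called higher and 1 lower (26.7% and 3.33%). Of all tested genes 12.7% were called in each direction. The 30 had 28 positive differences and a median of 0.29. In 21 of them (70%, against 22.0% of all tested genes) the 3 cirrhotic arrays all lay above the 3 control arrays. The 30 include the assembly chaperones Psmd5 (called higher), Psmd10 (called lower) and Psmd9, which leave the finished particle. Under quantile normalization 28 of these 30 were positive too, and with median centring 25 were, with 2 called higher. When any 1 array was left out, the 8 higher calls became 1 to 5 of the 30 genes, with 1 called without control 3. Over all probe sets the 1167 higher calls became 627 to 1256 in those fits, and 647 without control 3. Leaving an array out reduces the samples, and the part of any single array in the lost calls was not tested.

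**Figure D1:**
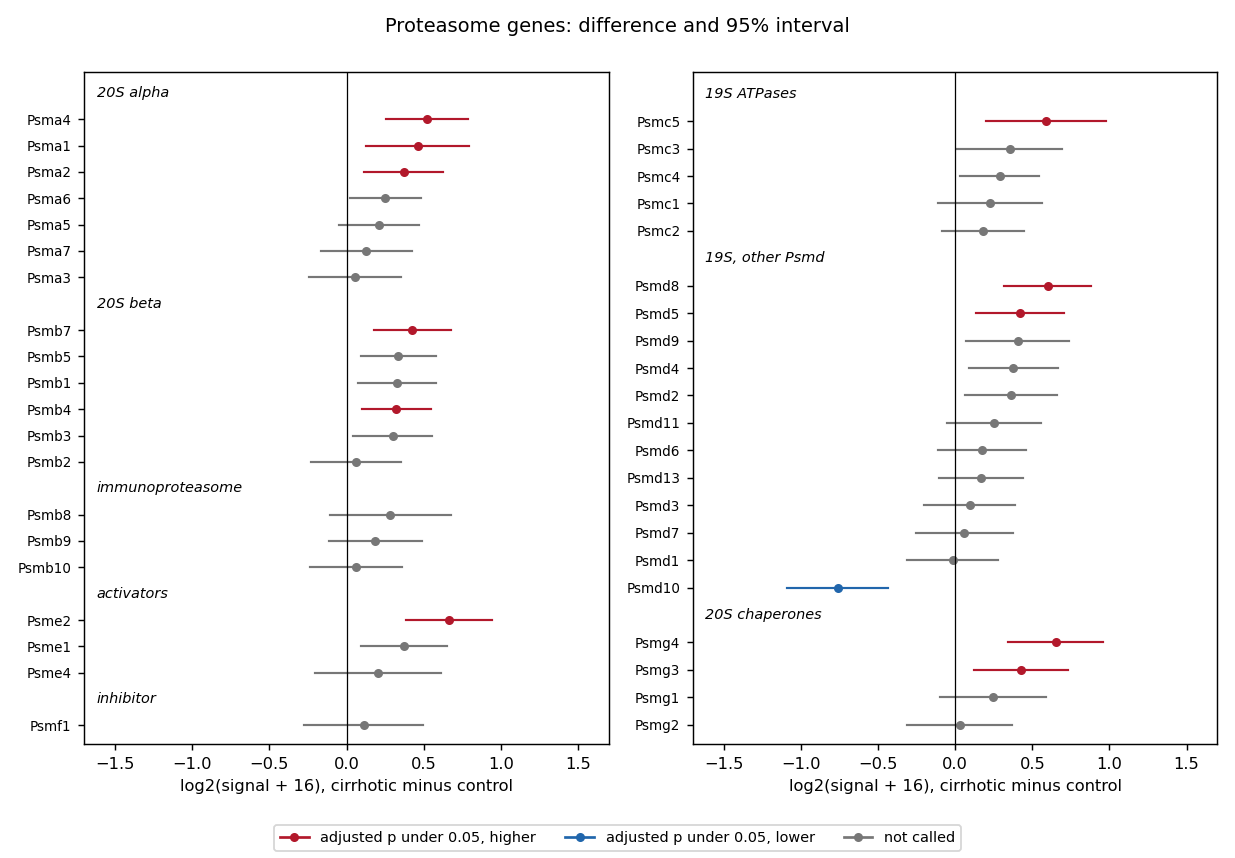
Difference of each of 41 tested genes of the proteasome, with its 95% interval from the limma fit (x axis: cirrhotic minus control, log2(signal + 16); rows: genes by role). All but 2 points lie right of 0, most between 0 and 0.6, and Psmd10 stands alone at -0.76.

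The alpha ring, which forms the gate of the core, had 3 of 7 genes called higher, against 12.7% of all tested genes. Its median difference was 0.25. Psma4 gave 899.0, 955.3 and 902.5 on cirrhotic arrays 1 to 3, against 612.1, 644.2 and 647.4 on control arrays 1 to 3. Every cirrhotic value was above every control value, and the arrays within a group lay close together. The difference was 0.52 (SE 0.12, adjusted p = 0.0146), and the call ended without control 1 or without control 3 (adjusted p up to 0.0607).

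Psma2 and Psma1 were called higher at smaller margins. Psma2 gave 1769.1, 1660.8 and 1678.8 on cirrhotic arrays and 1253.6, 1299.7 and 1385.8 on control arrays, a difference of 0.37 (SE 0.11, adjusted p = 0.0431). Psma1 gave 1144.8, 1499.2 and 1252.0 against 883.6, 901.7 and 1020.4, a difference of 0.46 (SE 0.14, adjusted p = 0.0497). Neither gene overlapped between groups, but neither kept its call in any fit that left out 1 array. Psma6, Psma5, Psma7 and Psma3 had differences of 0.25, 0.21, 0.13 and 0.06 and were not called. The probe set of Psma3 is 1 of 2, the other being shared with the near copy Psma3l and so outside the rule. That shared probe set had a difference of 0.42 (adjusted p = 0.0673), so the 2 readings of Psma3 differ in size.

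Among constitutive beta subunits 2 of 6 were called higher, against 12.7% of all tested genes, with a median difference of 0.33 for the 6. Psmb7, which carries the trypsin-like site (beta2), gave 2559.6, 2243.1 and 2427.1 on cirrhotic arrays and 1855.9, 1782.7 and 1725.6 on control arrays. The lowest cirrhotic value was above the highest control value, and the difference was 0.43 (SE 0.11, adjusted p = 0.0246). Psmb5, which carries the chymotrypsin-like site (beta5), gave 1970.9, 1972.7 and 2107.6 on cirrhotic arrays and 1642.4, 1568.3 and 1569.3 on control arrays. Its groups did not overlap either, and its difference of 0.34 (95% interval 0.09 to 0.58) just missed the call at an adjusted p of 0.0503.

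Psmb4, a structural beta subunit, gave 3141.0, 3263.7 and 3023.8 on cirrhotic arrays and 2542.3, 2421.2 and 2559.4 on control arrays, with a difference of 0.32 (SE 0.10, adjusted p = 0.0432). Its call held in 1 of the 6 fits without an array, and that of Psmb7 in 2. Psmb1 and Psmb3 had differences of 0.33 and 0.30 with no overlap and no call, and Psmb2 a difference of 0.06 with overlapping groups. Psmb6, the caspase-like subunit (beta1), shares its probe set with Psmb6l1 and so falls outside the rule; that probe set gave 957.1, 1119.6 and 1085.6 on cirrhotic arrays and 806.2, 819.9 and 809.8 on control arrays, a difference of 0.37 (adjusted p = 0.0608).

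None of the 3 immunoproteasome genes was called, and their differences ran from 0.06 to 0.28. Psmb8, the replacement for Psmb5, gave 1400.9, 2125.0 and 1744.9 on cirrhotic arrays and 1318.1, 1560.3 and 1390.2 on control arrays. The groups overlapped, because cirrhotic 1 lay under control 2, and array 2 was the highest of both groups. The difference was 0.28 with a 95% interval of -0.11 to 0.67 (adjusted p = 0.25), an interval that holds both 0 and the difference of Psmb7.

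Psmb9, the replacement for Psmb6, gave 1488.3, 1472.3 and 1807.9 on cirrhotic arrays and 1462.1, 1290.8 and 1417.8 on control arrays. All cirrhotic values were higher, 2 of them only slightly, and the difference was 0.19 (interval -0.12 to 0.49, adjusted p = 0.326). Psmb10, the replacement for Psmb7, gave 836.1, 818.9 and 810.7 on cirrhotic arrays and 881.0, 777.3 and 711.9 on control arrays. The cirrhotic values lay inside the control range, with a difference of 0.06 (interval -0.24 to 0.36, adjusted p = 0.76), and this sign turned with median centring and without control 3.

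Each replacement can be set against its constitutive partner on the same array, a comparison of 2 pairs chosen after their values were seen. The log2 signal of Psmb10 minus that of Psmb7 was -1.60, -1.44 and -1.56 on cirrhotic arrays and -1.06, -1.18 and -1.26 on control arrays. Probe sets differ in brightness, so only the shift between groups can be read: it was -0.36, with no overlap, and an exact two-sided permutation test gave p = 0.1, the smallest that 3 against 3 arrays allow. For Psmb8 minus Psmb5 the shift was -0.05 with overlapping groups (exact two-sided permutation p = 0.9). Over the 2 pairs neither shift could have passed 0.05.

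**Figure D2:**
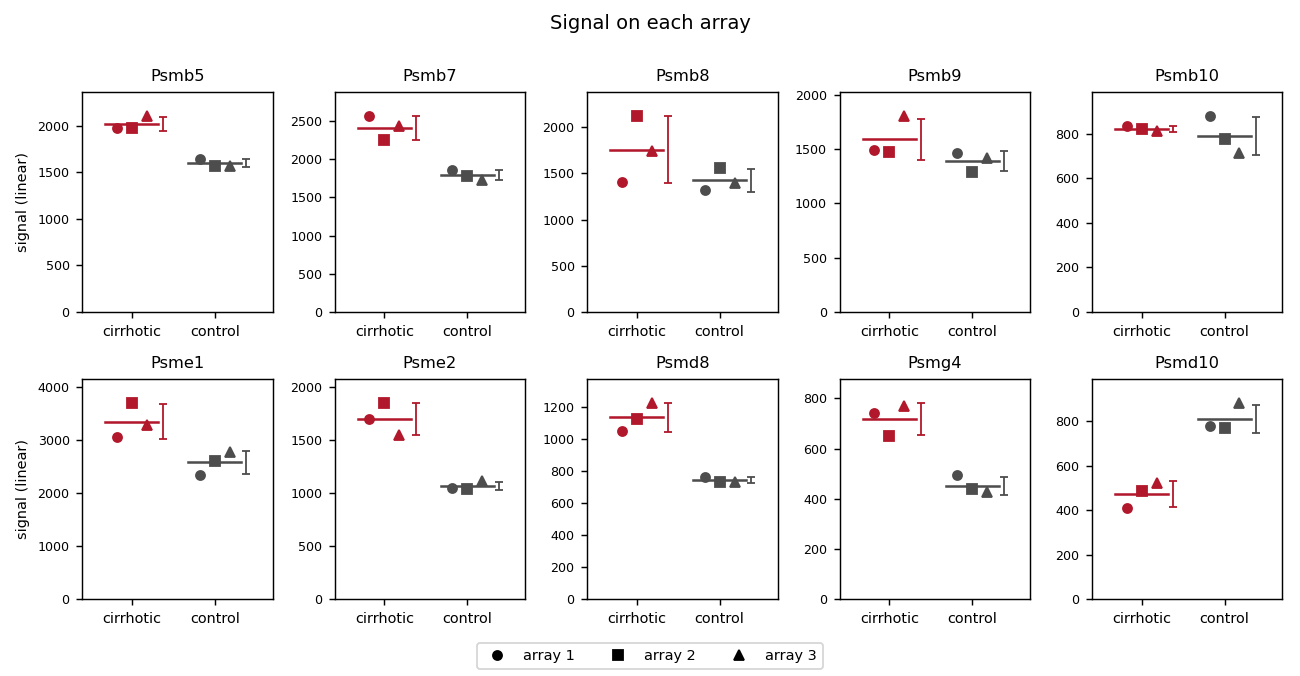
Signal on each array for 10 proteasome genes (y axis: linear signal from 0; symbols mark the array number, horizontal lines the mean and bars the SD of 3 arrays). Cirrhotic and control arrays separate for Psmb5, Psmb7, Psme1, Psme2, Psmd8, Psmg4 and Psmd10, lie next to each other for Psmb9 and overlap for Psmb8 and Psmb10.

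The activators and the inhibitor of the core were measured as well. Psme2, the beta subunit of PA28, gave 1703.2, 1856.3 and 1546.8 on cirrhotic arrays and 1046.5, 1040.5 and 1111.2 on control arrays. The lowest cirrhotic array was well above the highest control array, and the difference of 0.66 (SE 0.12, adjusted p = 0.00695), a fold of 1.58, kept its call under every alternative and every left-out array. Psme1, its alpha partner, gave 3044.7, 3700.5 and 3277.8 on cirrhotic arrays against 2337.9, 2608.2 and 2774.3 on control arrays, again without overlap. Its difference of 0.37 (interval 0.10 to 0.65) was not called (adjusted p = 0.0545). The nuclear activator PA200 (Psme4) had a difference of 0.20 and the inhibitor PI31 (Psmf1) one of 0.11, both with overlapping groups. Psme3 shares its probe sets with Aoc3 and G6pc1 in the annotation and was not analysed as a member.

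The ATPase ring of the cap had 1 of 5 genes called higher (20%), against 12.7% of all tested genes. In 4 of the 5 (80%, against 22.0% of all) every cirrhotic array lay above every control array. The median difference of the ring was 0.29. Psmc5 gave 727.8, 654.9 and 641.4 on cirrhotic arrays and 521.7, 349.8 and 474.8 on control arrays. Control 2 was the lowest value, and the call (difference 0.59, SE 0.17, adjusted p = 0.038) held in 2 of 6 fits without an array. Psmc3, Psmc4, Psmc1 and Psmc2 had differences of 0.35, 0.29, 0.23 and 0.18 and were not called.

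Of the other 12 genes named for the cap, 2 were called higher and 1 lower (16.7% and 8.33%), against 12.7% of all tested genes in each direction. The median difference of the 12 was 0.21. Psmd8, a subunit of the lid, gave 1049.1, 1123.6 and 1225.1 on cirrhotic arrays and 763.2, 732.7 and 727.1 on control arrays. All cirrhotic values were higher by a wide margin, with a difference of 0.60 (SE 0.12, adjusted p = 0.0102) that kept its call under every alternative. Psmd4, the ubiquitin receptor of the cap, and Psmd2, of its base, had differences of 0.38 (adjusted p = 0.061) and 0.36 (adjusted p = 0.0755) without overlap. Psmd11, Psmd6, Psmd13, Psmd3, Psmd7 and Psmd1, all in the mature cap, had differences between 0.25 and -0.02 and were not called. The 0.25 is that of Psmd11, whose second probe set had a difference of -0.08 and was not called either (adjusted p = 0.693).

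Psmd5, Psmd9 and Psmd10 are chaperones that help build the ATPase ring and leave the finished particle, and they did not move together. Psmd10, also known as gankyrin and studied as an oncoprotein of the liver, gave 407.6, 485.9 and 521.8 on cirrhotic arrays and 776.0, 768.6 and 883.6 on control arrays. Every cirrhotic value was far under every control value, and the difference of -0.76 (SE 0.14, adjusted p = 0.00742), a fold of 0.589, kept its call under every alternative. Psmd5 gave 460.4, 532.8 and 532.5 against 380.8, 367.4 and 376.6, a difference of 0.42 (adjusted p = 0.0402) that was lost whichever array was left out. Psmd9 had a difference of 0.41 and no call (adjusted p = 0.0758).

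Of the chaperones that assemble the 20S core, Psmg3 and Psmg4 form one pair and Psmg1 and Psmg2 another. Psmg4 gave 740.6, 648.3 and 770.5 on cirrhotic arrays and 493.4, 437.7 and 426.4 on control arrays. The groups stood well apart, with a difference of 0.65 (SE 0.13, adjusted p = 0.0105) that kept its call under every alternative. Psmg3 gave 351.5, 323.6 and 385.6 against 282.5, 243.9 and 250, a difference of 0.43 at the edge of the call (adjusted p = 0.05 after rounding). Psmg1 and Psmg2 had differences of 0.25 and 0.03 and overlapping groups. A further chaperone of the core, Pomp, which is outside the rule, gave 2923.9, 3085.7 and 3544.6 on cirrhotic arrays and 3792.6, 3562.8 and 4086.9 on control arrays, a difference of -0.26 that was not called (adjusted p = 0.124).

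**Figure D3:**
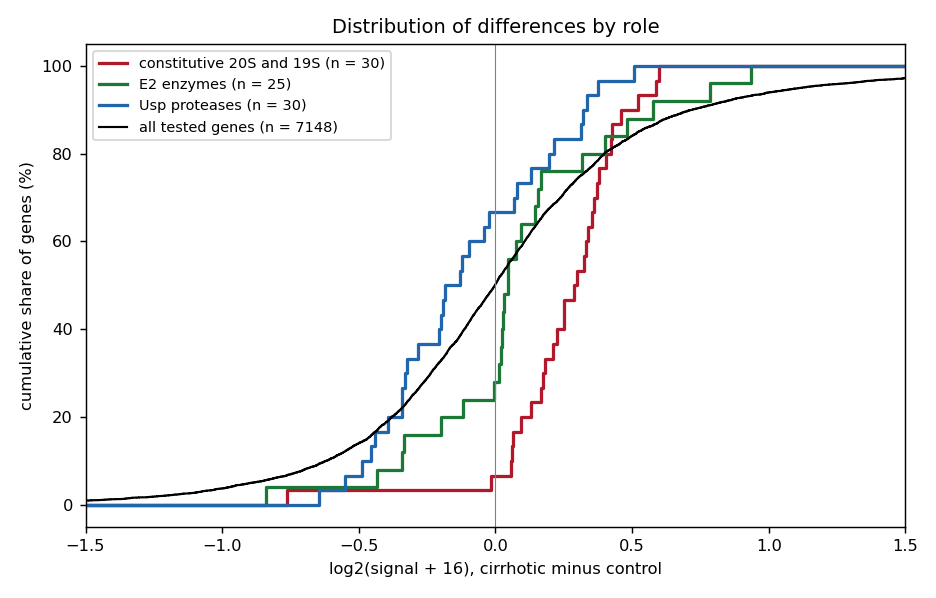
Cumulative share of genes (y axis, percent) by difference, cirrhotic minus control on log2(signal + 16) (x axis), for 30 constitutive 20S and 19S genes, 25 E2 genes, 30 Usp genes and all 7148 tested genes. The core and cap curve climbs mostly between 0 and 0.6 (median 0.29), the E2 curve climbs near 0 (median 0.04), and the Usp curve has its median at -0.16.

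The enzymes of the ubiquitin cycle were divided in direction. Of 60 tested E1, E2, Usp and Uch genes, 31 differences were positive and 29 negative, with a median of 0.02. Of the 60, 3 were called higher and 3 lower (10%), against 25.5% of all tested genes called. At the top of the cascade none of 4 E1 genes was called, and all 4 overlapped between groups, where 45.2% of all tested genes did not. Uba1, the main ubiquitin E1, gave 2450.2, 2337.4 and 2066.3 on cirrhotic arrays and 2491.5, 2359.3 and 2628.8 on control arrays, a difference of -0.13 (interval -0.39 to 0.14). Uba6, the other ubiquitin E1, had a difference of 0.34 (interval -0.16 to 0.84). Uba2 and Uba3, the catalytic E1 subunits for SUMO and NEDD8, had differences of 0.05 and -0.03.

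Of 25 tested E2 genes 2 were called higher and 1 lower (8% and 4%), against 12.7% of all tested genes in each direction. The E2 median was 0.04, with 18 of 25 differences positive, against 49.7% of all tested genes. With median centring 10 of 25 were positive, and the share of all tested genes fell too, to 42.4%. Ube2q2 gave 507.9, 546.0 and 586.5 on cirrhotic arrays and 935.4, 876.0 and 1178.9 on control arrays. The cirrhotic arrays were all far under the control arrays, and the difference of -0.84 (SE 0.15, adjusted p = 0.00662), a fold of 0.559, was the lowest of all tested members and kept its call under every alternative. Ube2e2, an E2 related to the Ube2d enzymes, gave 267.5, 269.1 and 246.4 on cirrhotic arrays and 154.3, 87.1 and 156.3 on control arrays. The difference of 0.94 (SE 0.22, adjusted p = 0.0184) was the highest of the tested members, with control 2 by itself at the bottom, and the call ended only without cirrhotic 1 (adjusted p = 0.0707). A probe set shared by Ube2e1 and Ube2e2, outside the rule, had a difference of 0.30 (adjusted p = 0.156).

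Ube2l3, which serves ligases of the HECT and RBR types, gave 1564.5, 1340.9 and 1729.5 on cirrhotic arrays and 878.1, 1149.9 and 1069.3 on control arrays, a difference of 0.58 (adjusted p = 0.0301). The call held in 2 of 6 fits without an array (adjusted p up to 0.101) and ended with median centring. Its second probe set had a difference of 0.17 and was not called (adjusted p = 0.421), so the readings of this gene disagree. Ube2k likewise had a brightest probe set with a difference of 0.03 and a dimmer one called lower at -0.49 (adjusted p = 0.037). Of 12 genes with more than 1 tested probe set, 9 had the same call on all of them, 3 did not (Ube2k, Ube2l3 and Usp48), and 0 had calls in opposite directions.

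The E2 pair of the anaphase-promoting complex, which drives exit from mitosis, stood on opposite sides of 0 without a call. Ube2c, which starts the chains, gave 479.2, 282.8 and 581.1 on cirrhotic arrays and 270.2, 260.5 and 203.1 on control arrays, a difference of 0.78 (interval 0.19 to 1.38, adjusted p = 0.0586). Cirrhotic 2 was barely above the control arrays, and without it Ube2c was called (1.07, adjusted p = 0.007). Ube2s, which extends them, gave 1449.2, 1282.6 and 1522.6 against 1625.1, 1993.1 and 2173.8, a difference of -0.43 (adjusted p = 0.0622). Of 10 tested genes of proliferating cells 5 were higher and 0 lower, against 12.7% of all tested genes in each direction, with Aurka, Aurkb, Bub1b and Tyms too dim. The summed signal of the 10 was 5845.1 to 6752.4 on cirrhotic arrays against 4952.7 to 6003.2 on control arrays. Much of that sum came from Pcna, with 3344.6, 3812.9 and 2851.2 on cirrhotic arrays against 3665.1, 4389.5 and 4483 on control arrays. Pcna had a difference of -0.33, with overlapping groups, and was not called (adjusted p = 0.117). Cdk1, with 387.0, 260.5 and 565.4 on cirrhotic arrays against 108.8, 120.6 and 154.1 on control arrays, had the same order of arrays as Ube2c within the cirrhotic group. The part of dividing cells in the value of Ube2c was not tested.

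**Figure D4:**
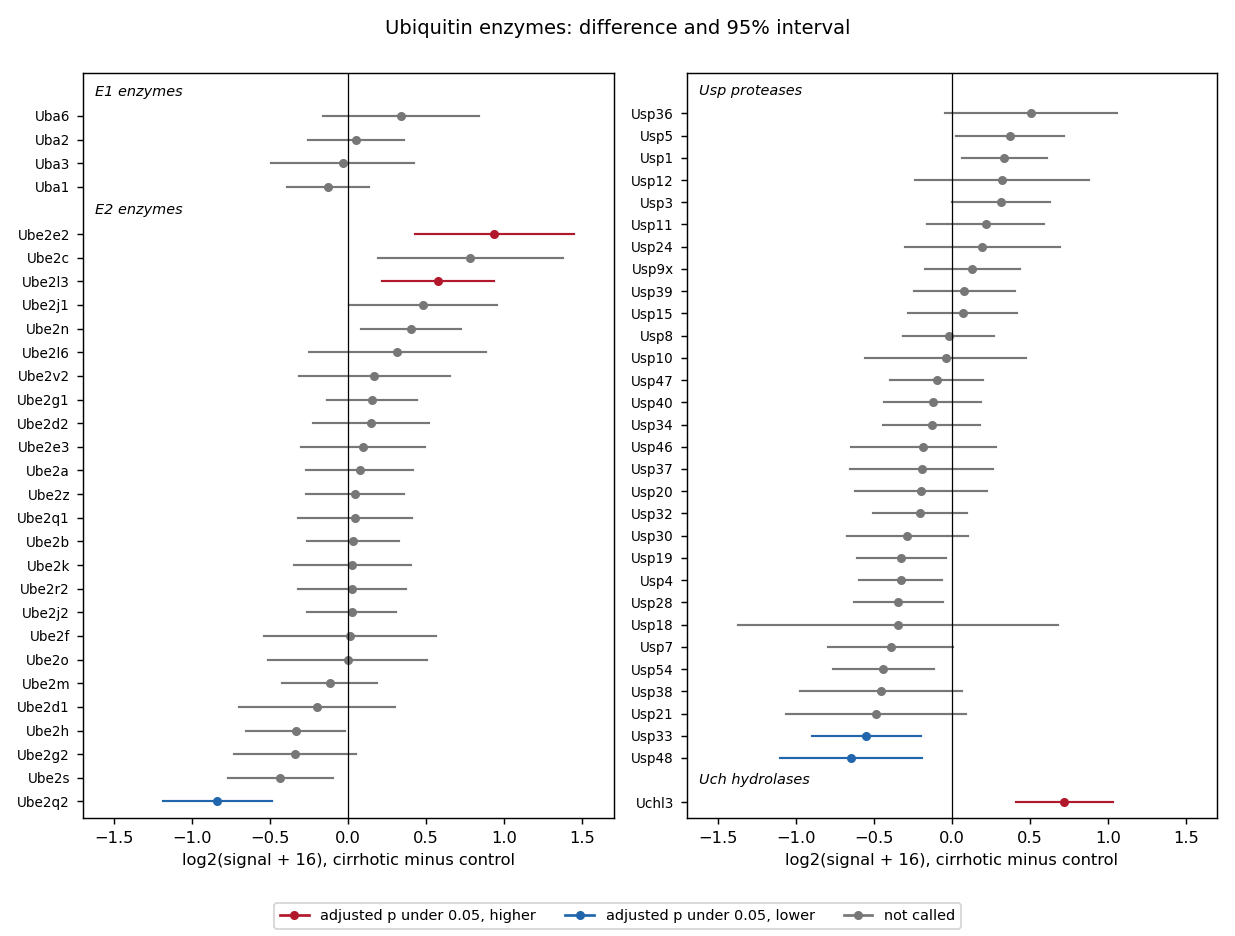
Difference of each of 60 tested E1, E2, Usp and Uch genes with its 95% interval from the limma fit (x axis: cirrhotic minus control, log2(signal + 16); rows: genes by role). Points lie on both sides of 0, with Ube2e2, Ube2l3 and Uchl3 called higher and Ube2q2, Usp33 and Usp48 called lower.

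The ubiquitin-specific proteases (Usp), which remove ubiquitin from proteins, had mostly negative differences. Of 30 tested Usp genes 0 were called higher and 2 lower (6.67%), against 12.7% of all tested genes in each direction. In the family 20 of 30 differences were negative, and the median was -0.16. Without overlap between groups, 23.3% of Usp genes (7 of 30) were lower, the same share as of all tested genes, and 13.3% (4 of 30) were higher, against 22.0% of all. Usp33 gave 549.1, 616.2 and 447.1 on cirrhotic arrays and 796.6, 735.6 and 832.0 on control arrays, a difference of -0.55 (SE 0.15, adjusted p = 0.033). Usp48 gave 617.9, 643.4 and 489.3 on cirrhotic arrays and 927.6, 718.8 and 1150.8 on control arrays, a difference of -0.65 (adjusted p = 0.0468), with a second probe set at -0.31 that was not called (adjusted p = 0.156). Neither gene overlapped between groups, and each kept its call in 1 of 6 fits without an array. Usp36, a nucleolar protease, had the highest difference of the family at 0.51, carried by cirrhotic 2 (722.3, 1230.9 and 638.8 against 520.7, 606.8 and 611.9), and was not called (adjusted p = 0.153).

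The hydrolase Uchl3, which cleaves ubiquitin and NEDD8 from small adducts, was the only tested Uch gene and was higher. It gave 433.8, 479.2 and 436.8 on cirrhotic arrays and 233.8, 280.7 and 288.3 on control arrays. The groups stood well apart, and the difference of 0.72 (SE 0.13, adjusted p = 0.00742), a fold of 1.65, kept its call under every alternative. Uchl1, the neuronal relative, was too dim to test at 14.1, 50.9 and 22.8 on cirrhotic arrays and 18.6, 38.1 and 7.7 on control arrays. The control values lay within the range of the bacterial control probe sets on their arrays, and cirrhotic 2 lay above it. The other members too dim to test were Ube2d2b, Ube2t, Usp2, Usp25 and Usp42, of which Ube2t, an E2 of DNA crosslink repair, gave 117.9, 62.9 and 133.0 on cirrhotic arrays and 50.2, 80.2 and 35.9 on control arrays.

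Ube2l6 and Usp18 attach and remove ISG15, the interferon-induced relative of ubiquitin, and neither was called. Ube2l6 gave 291.1, 408.3 and 509.7 on cirrhotic arrays and 307.3, 408.1 and 243.1 on control arrays, a difference of 0.32 (interval -0.25 to 0.88). Usp18 gave 265.1, 734.5 and 307.9 on cirrhotic arrays and 468.0, 855.8 and 314.7 on control arrays, a difference of -0.34 with an interval of -1.37 to 0.68. Array 2 was by far the highest in both groups. Mx1, at 168.3, 473.6 and 154.7 against 196.1, 368.9 and 142.1, and Oas1a, at 204.4, 551.4 and 262.9 against 349.4, 617.4 and 256.1, had the same highest array in both groups. Of the 10 tested interferon-induced genes, 6 had array 2 highest in both groups, and Cxcl10, Ifi27, Ifit1 and Mx2 did not.

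Genes around the members were described by lists chosen with earlier results known. Beside their counts stand the 25.5% of all tested genes that were called, 12.7% in each direction. Of 10 tested interferon-induced genes 1 was higher (Gbp2 at 0.69, held in 2 of 6 fits without an array and lost under quantile normalization) and 2 lower: Ifit3 at -1.74 (adjusted p = 0.00212) and the chemokine Cxcl10 at -0.98 (adjusted p = 0.0069). Their median was -0.36. Of 9 tested genes of class I antigen presentation, the pathway that immunoproteasome peptides enter, 0 were higher and 1 lower. That gene was Irf1, an interferon-induced transcription factor, which gave 3119.5, 4843.3 and 4010.2 on cirrhotic arrays and 5950.7, 5168.1 and 6670.3 on control arrays, a difference of -0.58 (adjusted p = 0.0402) that held in 1 of 6 fits without an array. The peptide transporter genes Tap1 and Tap2 had differences of -0.29 and -0.39 and were not called.

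Of 17 tested shuttle factors, segregase genes and partners of the proteasome 0 were higher and 2 lower, against 12.7% of all tested genes in each direction. Both lower genes encode transcription factors. Nfe2l1, which is known to raise proteasome subunit genes when proteasome activity falls, gave 271.0, 257.0 and 299.1 on cirrhotic arrays and 457.3, 402.6 and 445.6 on control arrays. All cirrhotic values were lower, with a difference of -0.63 (SE 0.13, adjusted p = 0.0102) that held in all 6 fits without an array. Nfe2l2, the factor of the antioxidant response, gave 1731.4, 2260.7 and 1653.4 on cirrhotic arrays and 2981.7, 2815.7 and 3067.3 on control arrays, a difference of -0.66 (adjusted p = 0.0127) that ended without control 3 or without cirrhotic 1. The adaptor Sqstm1 (p62), which binds ubiquitin chains, had a difference of 0.52 and just missed the call (adjusted p = 0.0503), and the segregase Vcp had one of 0.28 (adjusted p = 0.101).

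**Figure D5:**
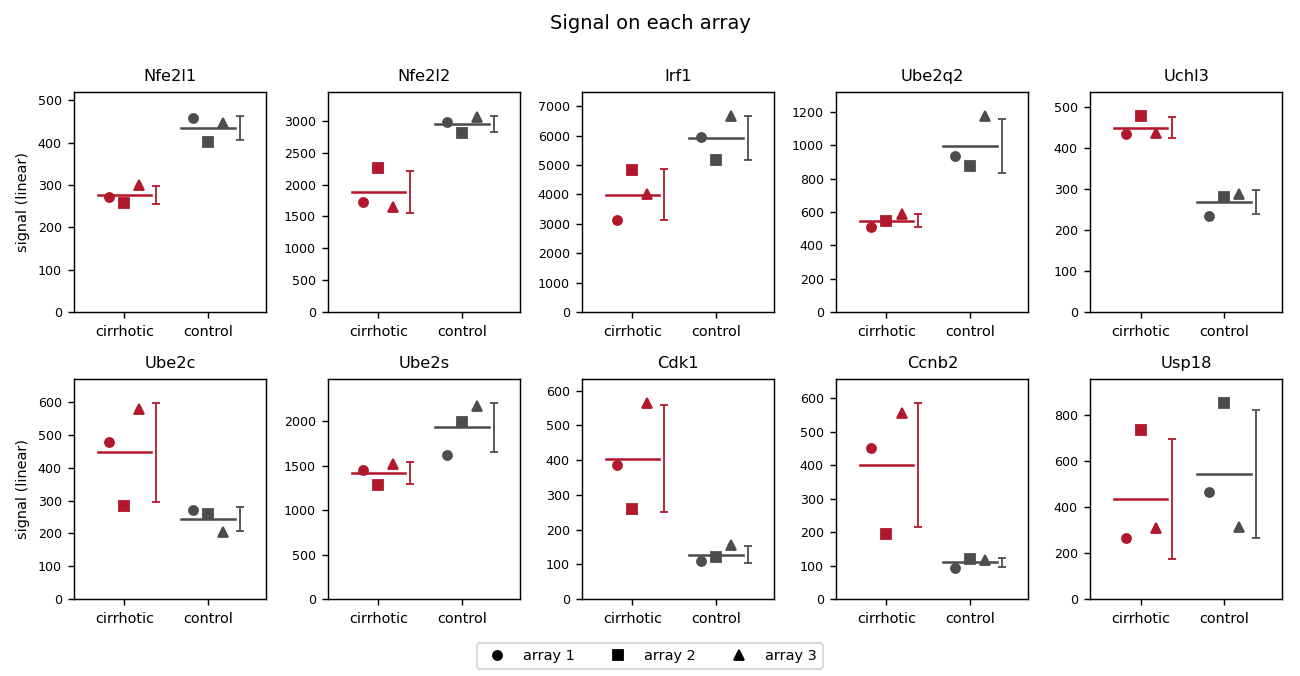
Signal on each array for 10 genes (y axis: linear signal from 0; symbols mark the array number, horizontal lines the mean and bars the SD of 3 arrays). Nfe2l1, Nfe2l2, Irf1, Ube2q2 and Ube2s are lower on the cirrhotic arrays without overlap and Uchl3 higher, while Usp18 overlaps and Ube2c, Cdk1 and Ccnb2 have cirrhotic 2 as the lowest cirrhotic array.

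Among 36 tested E3 ligase genes and scaffolds 1 was higher and 1 lower, with a median of -0.05. Over all tested genes 12.7% were called in each direction, a share that also stands beside the lists that follow. Birc3, a ligase of NF-kB signalling, rose by 1.33 on the log2 scale (adjusted p = 0.00895), with 1253.2, 1846.0 and 850.5 on cirrhotic arrays against 441.3, 531.9 and 500.9 on control arrays. Pja2 was lower at -0.50 (adjusted p = 0.0301), a call that held in 1 of 6 fits without an array, while that of Birc3 held in all 6. Of 20 tested genes of ubiquitin-like modifiers 2 were higher and 1 lower: Nedd8 at 0.34 (adjusted p = 0.0352), Ufm1 at 0.51 (adjusted p = 0.0201) and the autophagy modifier Gabarapl1 at -1.08 (adjusted p = 0.00629). The call of Gabarapl1 held in all 6 fits without an array, that of Ufm1 in 2 and that of Nedd8 in 0, and both higher calls ended with median centring. Of 14 tested genes of other deubiquitinases and the COP9 signalosome 1 was higher, Cops2 at 0.39 (adjusted p = 0.0482), a call that held in 0 of 6 fits without an array. None of 4 listed ubiquitin precursor genes had a probe set under its own symbol alone, so ubiquitin itself was not analysed here.

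The spread between arrays bears on how far these small differences can be read. The median standard error of the members was 0.14 against 0.16 over all tested genes, and the median SD between arrays was 0.13 on cirrhotic and 0.13 on control arrays, against 0.19 and 0.16 over all probe sets. Across the 18 called members, 6 kept the call in all 6 fits without an array (Psme2, Psmd8, Psmg4, Uchl3, Psmd10 and Ube2q2), 8 kept it in 1 to 5 of them, and 4 (Psma1, Psma2, Psmd5 and Psmg3) in none. Those 6 genes were called under every alternative in which they were tested.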

How the data were processed

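As deposited, the values are intensities on a linear scale, 1 for each probe set on each of 6 Rat 230A arrays. What the authors did to compute and scale them is not given in the sources used here. Trimmed by 2% at each end, the mean was 399.2 to 399.6 on all arrays, and the authors' scaling was kept. Such signals are relative to the rest of the array and cannot show a change in total RNA per cell. Arrays carry no read depth, and their number limits the precision. Signal over background limits dim genes: the highest of 27 bacterial control probe sets read 21.7 to 49.9.

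Sample titles gave the groups and array numbers, and the control array without a number was called control 1. Values were turned into log2(signal + 16), 16 being the 10th percentile of all values rounded. The 57 control probe sets and the dimmest 40% of the other 15866 were left out, which removed 6347 and kept 9519, at a threshold signal of about 127. A gene high in 1 group only can fall under it. The 2 groups were compared in R 4.3.3 by limma 3.58.1 (lmFit and eBayes with a variance trend, two-sided, Benjamini-Hochberg over 9519 probe sets, threshold 0.05, 95% intervals). A gene was read from its brightest tested probe set. The 2 within-array pairs were compared with an exact permutation test. The script was tested on simulated data with known changes.

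Symbols come from the platform annotation supplied with the data: 12783 probe sets had 1 symbol, 312 several and 2771 none, and those with several named no gene. The identifiers of 12754 were found in the RefSeq GRCr8 gene table. Promoters come from RefSeq (GRCr8) and were matched by symbol for 97 of 109 genes. No protein sequences and no genome were used here.

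The members, the gene lists and the tests were chosen with earlier results of these data known. Genes named whatever their result were the immunoproteasome, catalytic, activator, inhibitor, ISG15, anaphase-promoting complex and Uch genes, Uba1 and Uba6. To these were added, for each role, up to 8 called genes with the smallest p and the highest and lowest difference, and up to 4 genes of each further list. Other genes named in the text, such as Psmb1, Psmd9, Psmg1, Pomp, Mx1 and Oas1a, were added after their values were seen. The array number was not used as a block. Alternatives covered quantile normalization, median centring, pseudocounts of 1 and 126, no filter and a 60% filter, other variance models, array weights, probe sets with suffixes left out, the mean of a gene's probe sets, a block for the array number and fits that left out 1 array each.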

Additional observations from a re-analysis of the deposited data

How the results depend on the processing

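Of 1112 combinations of a named gene and an alternative, 921 kept direction and call, 139 lost the call, 38 gained it and 14 changed sign. The 14 higher members became 6 with median centring, 9 without a filter, 30 with array weights, 6 with the replicate block and 5 to 10 with 1 array left out. The 4 lower members became 7 with median centring, 11 with array weights, 2 with the replicate block and 2 to 4 with 1 array left out. The 2421 called probe sets became 3772 with array weights and 1341 to 2472 with 1 array left out. The labels give no pairing behind the array numbers, and deviations of same-numbered arrays correlated at 0.02, -0.01 and -0.16. Of 10 tested interferon-induced genes, 6 nevertheless had array 2 highest in both groups. Whether the calls lost under the block reflect a shared array effect was not tested.

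Sign changes occurred in genes without a call. With median centring the differences were -0.0170 for Psmb10, -0.0205 for Psma3, -0.0152 for Psmb2, -0.0493 for Psmg2 and -0.0441 for Psmc3ip, which was -0.0327 under quantile normalization. With 1 array left out they ran from -0.00982 to 0.141 for Psmb10, -0.0185 to 0.113 for Psma3, -0.0327 to 0.129 for Psmb2, -0.0948 to 0.119 for Psmg2, -0.0349 to 0.232 for Psmf1, -0.782 to 0.0312 for Usp18 and -0.0665 to 0.152 for Psmc3ip. Leaving an array out reduces the samples; the other causes were not tested. Genes near background were not tested.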

Other observations

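None of the probe sets that a gene of these families shares with another gene, and that lie outside the rule, was called. The probe set of Ube2v1 and Ube2v1l1, partners of the K63-chain enzyme Ube2n, had a difference of -0.06. The 3 probe sets of Ube2d2 and Ube2d3, general-purpose E2 enzymes, had differences of -0.06, -0.07 and -0.00. The 4 probe sets annotated to Psme3, Aoc3 and G6pc1 had differences from 0.15 to 0.77 with overlapping groups.

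Cirrhotic 3 was the lowest array of its group for 41 of 103 members, cirrhotic 1 for 32 and cirrhotic 2 for 30. In the control group the counts were 35, 39 and 29 for arrays 1 to 3. The median deviation of a member from the other arrays of its group lay between -0.04 and 0.03 on all 6 arrays.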
